A study of Mus musculus with 4 samples.

Results

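The genes described here encode the enzymes, carriers and regulators of fatty acid oxidation. They were chosen by name: 45 symbols were listed, among them Dci and Peci, the older names of Eci1 and Eci2. All 43 genes behind these symbols had a usable value in every library, out of 23046 symbols in all, and 41 of them were among the 11953 genes tested. RNA was sequenced from pooled pancreatic islets of C57BL/6 mice in 4 groups with 1 library each: refed KR, fasted KR, refed WT and fasted WT. KR mice carry a mutant FoxO1, a transcription factor, in which arginine stands in place of the lysines that are acetylated, and WT is the wild type. The labels name no promoter or cell type that limits the mutation. Each library is a pool made from islets of 3 mice of its genotype, as the protocol reads, and no group has a replicate library. The titles give a fast of 48 h and 6 h of refeeding, whereas the protocol gives a fast of 24 h before refeeding. The labels give neither age nor sex.

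Long-chain fatty acids are activated by acyl-CoA synthetases and enter mitochondria as carnitine esters through the carnitine shuttle. There, each round of oxidation runs through a dehydrogenase, a hydratase, a further dehydrogenase and a thiolase, and the first dehydrogenase passes its electrons to the respiratory chain through the electron transfer flavoprotein. Peroxisomes shorten very long and branched chains. In beta cells, malonyl-CoA made from glucose holds back the entry step, so that oxidation of fatty acids is favoured in fasting and restrained after a meal. The study's title links FoxO1 deacetylation to lower fatty acid oxidation in beta cells, and the comparisons below ask how the transcripts of the pathway stood in KR and WT islets and in refed and fasted ones.

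Levels are FPKM, fragments scaled to transcript length and library size, so they can be set side by side between genes. The deposited bounds imply about 10500000 fragments in refed KR and 25700000 in fasted KR, beside 17500000 in refed WT and 25600000 in fasted WT. Both refed libraries were thus shallower than both fasted ones, and refed KR was the shallowest. The part of depth in the feeding differences was not tested. The libraries carried the defining islet hormones at high levels. The summed FPKM of 8 beta-cell markers, from which Ins2 is missing because it lacks a usable value in fasted KR, was 81040 in refed KR and 55410 in fasted KR, beside 57730 in refed WT and 40710 in fasted WT. Most of each sum was Iapp, at 66970, 46130, 52780 and 35460 FPKM in the same order. Of 8 beta-cell markers tested, 6 rose in KR and 6 rose with refeeding, so members move beside a beta-cell signal that differs in both comparisons. Counts of markers here are to be read beside all genes tested, of which 27.7% rose and 29.2% fell with refeeding. Between genotypes, 1.26% of all genes passed. In pooled islets, fewer cells of a type and less RNA per cell cannot be told apart. The adipocyte list summed to 0.850, 1.67, 3.39 and 5.08 FPKM in refed KR, fasted KR, refed WT and fasted WT. Nearly all of each sum was Fabp4, at 0.850, 1.58, 3.38 and 5.06 FPKM, while Adipoq, Plin1, Lep, Retn and Cfd were at 0 in all libraries. Fabp4, the 1 tested gene of the list, was lower in KR and in refed islets, so these sums describe Fabp4 rather than the list. The endothelial list summed to 5.36, 9.94, 6.64 and 16.0 FPKM and the fibroblast list to 18.1, 31.0, 15.5 and 30.2 FPKM in the same order. Of their tested genes, 3 of 4 and 5 of 5 fell with refeeding and none passed between genotypes. The macrophage list summed to 267, 336, 267 and 317 FPKM, with 3 of 7 tested genes falling with refeeding and 2 rising in KR. Other lists rose with refeeding. The duct list summed to 533, 474, 591 and 500.0 FPKM, with 2 of 3 tested genes rising, Krt7 by 0.22 ± 0.05 and Krt19 by 0.46 ± 0.16. The acinar list summed to 61.7, 41.6, 49.5 and 36.3 FPKM, nearly all of it Cela1, its 1 tested gene, which rose by 0.47 ± 0.06. The PP-cell hormone gene Ppy rose by 0.55 ± 0.06. None of these passed between genotypes. The part of these cells in the differences below was not tested.

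The members spanned a wide range of expression. Hadh, the short-chain hydroxyacyl-CoA dehydrogenase that is also known to restrain insulin secretion through glutamate dehydrogenase, stood far above the rest, with 417 FPKM in refed KR and 368 in fasted KR, beside 417 in refed WT and 324 in fasted WT. Next came Etfb, Eci2, Echs1 and Ech1, with mean levels of 112, 98.1, 71.4 and 67.5 FPKM over the 4 libraries. Both of the regulators best known for switching the pathway on in liver and muscle were scarce. Ppara, the master activator of these genes in liver, had 0.301, 0.308, 0.440 and 0.459 FPKM in refed KR, fasted KR, refed WT and fasted WT. Ppargc1a, the coactivator of mitochondrial biogenesis, had 0.834, 0.732, 0.725 and 0.764 FPKM. Both lay under the mean of 1 FPKM needed for testing, so neither was tested, and the value of Ppara in refed KR rests on 20 implied fragments. Summed over all 43 members, FPKM came to 1666 in refed KR and 1521 in fasted KR, beside 1721 in refed WT and 1475 in fasted WT. Without Hadh the sums were 1249, 1153, 1304 and 1152.

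**Figure D1:**
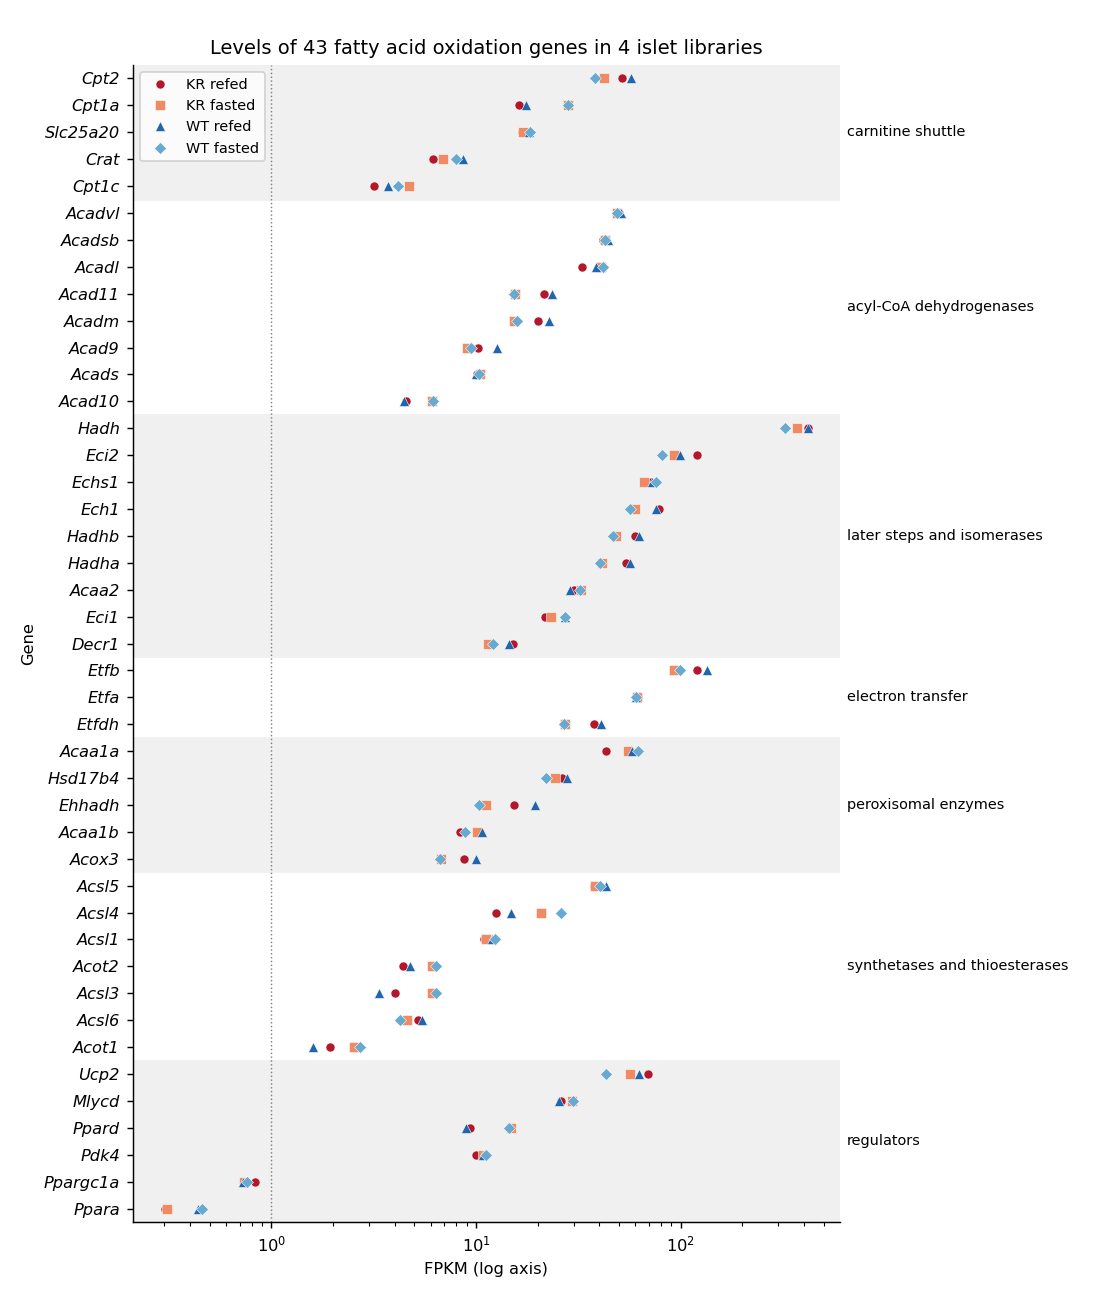
FPKM on a log axis for each of the 43 genes, in bands by role, with 1 symbol per library and a dotted line at 1 FPKM. Hadh stood highest, at 324 to 417 FPKM, and Ppara and Ppargc1a lay left of the line in all libraries.

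Refed islets were set against fasted ones to ask how the pathway follows a meal. Differences were fitted with limma on log2(FPKM + 1) over the 4 libraries with genotype as the other term, and p-values were adjusted over all genes tested. Of the 41 members, 16 rose, 10 fell and 15 did not pass. The genes that rose, 39.0% of the members, set beside 27.7% of all genes tested, were mainly enzymes inside mitochondria and peroxisomes. Those that fell made up 24.4% beside 29.2% of all genes. They were the entry enzyme Cpt1a, the synthetases Acsl3 and Acsl4, the receptor Ppard, Acadl, Acad10, Acaa1a, Acot1, Acot2 and Mlycd. Enzymes inside mitochondria and peroxisomes, such as Acadl and Acaa1a, were thus among them too. In total 63.4% of the members passed, close to the 56.9% of all genes, so passing this test does not set the pathway apart. The members' median difference was 0.01 and that of all genes -0.01. The fit has 1 residual degree of freedom per gene and borrows most of its error from other genes. That 1 degree is how far the feeding response differed between the genotypes, which the fit counts as error. No group has a replicate pool. The p-values, standard errors and intervals therefore do not measure the spread between pools or mice of a group. The calls of Acadl, Acaa1a, Hsd17b4 and Mlycd were lost without a mean-variance trend, and these calls and those of Acad9, Acad10, Hadh, Acot1 and Acot2 with no filter on low values. That of Mlycd was also lost after rescaling by the upper quartile. The role groups below were drawn after the values were seen. Their counts are to be read beside the 27.7% of all genes that rose and 29.2% that fell.

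Of the 5 carnitine shuttle genes, 1 rose, 1 fell and 3 did not pass, beside 27.7% of all genes that rose and 29.2% that fell. Cpt1a, the carnitine palmitoyltransferase of the outer membrane that sets the pace of the pathway, lies on chromosome 19 at 3323301 to 3385733 (positions of genes are in mm9). It had 16.2 FPKM in refed KR and 28.1 in fasted KR, beside 17.5 in refed WT and 28.1 in fasted WT. Both refed libraries lay below both fasted ones, and the genotypes were close together in each state. Cpt1a fell by 0.71 ± 0.07 (SE, 4 libraries) on the log2 scale, 0.612 times the fasted level of FPKM + 1 (adjusted p = 6.71e-05).

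Cpt2, which reverses the transfer on the inner membrane and lies on chromosome 4 at 107576587 to 107596194, moved the other way. It had 51.5 FPKM in refed KR and 42.0 in fasted KR, beside 57.3 in refed WT and 38.2 in fasted WT, and both refed libraries lay above both fasted ones. Cpt2 rose by 0.43 ± 0.08 (adjusted p = 0.00162). The carnitine-acylcarnitine carrier Slc25a20 had 16.8, 17.0, 18.2 and 18.4 FPKM in refed KR, fasted KR, refed WT and fasted WT, a difference of -0.02 ± 0.07 (adjusted p = 0.86). Crat, a carnitine acetyltransferase for short acyl groups, had a difference of -0.02 ± 0.09, and its row overlaps that of Dolpp1 by 52 bases. The brain-type Cpt1c, at 3.19, 4.68, 3.73 and 4.16 FPKM, had -0.28 ± 0.11 (adjusted p = 0.0591). The muscle form Cpt1b, which is no member, had 0.756, 0.706, 0.733 and 0.586 FPKM, so of the 3 forms of the entry enzyme Cpt1a had the highest level in every library.

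Of the 8 acyl-CoA dehydrogenases, which take the first step of each round, 3 rose, 2 fell and 3 did not pass. Acadm, the medium-chain enzyme, had 20.1 FPKM in refed KR and 15.2 in fasted KR, beside 22.6 in refed WT and 15.9 in fasted WT, and rose by 0.43 ± 0.07 (adjusted p = 0.000946). Acad11 rose by 0.52 ± 0.07, with 21.4, 15.5, 23.6 and 15.3 FPKM in the same order, and Acad9, which is also an assembly factor of complex I, by 0.28 ± 0.09, with 10.2, 9.04, 12.7 and 9.45 FPKM. In all 3 the refed libraries were the higher ones. Acadl, the long-chain enzyme, had 32.7, 40.97, 38.4 and 41.7 FPKM and fell by 0.21 ± 0.07 (adjusted p = 0.0285). Acad10 had 4.53, 6.10, 4.45 and 6.13 FPKM and fell by 0.38 ± 0.09 (adjusted p = 0.0073). Acadvl, the very-long-chain enzyme at 48.6 to 51.1 FPKM, Acads, the short-chain enzyme at 9.95 to 10.5 FPKM, and Acadsb, the short branched-chain enzyme at 41.9 to 43.9 FPKM, had differences of 0.06, -0.05 and 0.01.

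The later steps rose or did not pass. Of 9 genes, grouped after the values were seen, 6 rose, 0 fell and 3 did not pass, with a median difference of 0.31. Over all genes, 27.7% rose and 29.2% fell. Hadha and Hadhb encode the alpha and beta subunits of the trifunctional protein, which carries the last 3 reactions for long chains in a single complex. Hadha, on chromosome 5 at 30444844 to 30481520, had 53.9 FPKM in refed KR and 41.3 in fasted KR, beside 56.3 in refed WT and 40.2 in fasted WT. Hadhb, beside it at 30481862 to 30511123, had 60.0, 48.4, 62.6 and 46.5 FPKM in the same order. They rose by 0.42 ± 0.06 (adjusted p = 0.000559) and 0.36 ± 0.06 (adjusted p = 0.00129), and in each the refed libraries stood above the fasted ones.

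These 2 genes lie head to head, and the stretch between them is shown because they moved alike. Members on other chromosomes rose by similar amounts, such as Acadm by 0.43 and Ech1 by 0.40. The part of the shared stretch in the rise was not tested. In RefSeq's annotation of GRCm38.p6 the start sites of Hadha and Hadhb lie 273 bases apart on opposite strands. Windows of 300 bases around each start, mostly upstream of it, hold 228 bases in common, printed in capitals. The Hadha window is chr5:30154931-30155230 on the minus strand and the Hadhb window chr5:30155003-30155302 on the plus strand, both read 5′ to 3′.
Hadha: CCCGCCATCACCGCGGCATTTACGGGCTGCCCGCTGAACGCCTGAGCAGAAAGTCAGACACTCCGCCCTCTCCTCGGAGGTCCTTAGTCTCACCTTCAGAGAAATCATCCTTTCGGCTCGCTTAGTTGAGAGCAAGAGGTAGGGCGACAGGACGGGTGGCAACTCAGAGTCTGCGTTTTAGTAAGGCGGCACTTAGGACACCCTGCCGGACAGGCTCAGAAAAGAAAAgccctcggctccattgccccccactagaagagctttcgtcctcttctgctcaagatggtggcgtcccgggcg
Hadhb: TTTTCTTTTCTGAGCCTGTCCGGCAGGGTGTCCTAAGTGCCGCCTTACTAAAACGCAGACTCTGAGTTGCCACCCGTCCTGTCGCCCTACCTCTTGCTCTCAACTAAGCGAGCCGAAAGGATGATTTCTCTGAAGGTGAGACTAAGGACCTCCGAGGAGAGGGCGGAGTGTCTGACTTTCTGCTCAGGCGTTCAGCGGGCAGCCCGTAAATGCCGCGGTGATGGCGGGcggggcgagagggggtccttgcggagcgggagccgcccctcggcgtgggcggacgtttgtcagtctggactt

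Hadh rose by 0.27 ± 0.06 (adjusted p = 0.00477) with refeeding. Ech1, an isomerase for dienoyl-CoA, had 78.0 FPKM in refed KR and 59.8 in fasted KR, beside 76.0 in refed WT and 56.2 in fasted WT, and rose by 0.40 ± 0.06 (adjusted p = 0.000528). Eci2, an enoyl-CoA isomerase for unsaturated fatty acids that is also found in peroxisomes, had 120, 92.4, 98.6 and 81.1 FPKM and rose by 0.33 ± 0.06. Decr1, the dienoyl-CoA reductase, had 15.1, 11.4, 14.5 and 12.0 FPKM and rose by 0.31 ± 0.08 (adjusted p = 0.0072). Acaa2, the mitochondrial thiolase, had 30.2, 32.4, 28.9 and 32.1 FPKM. Echs1, the short-chain hydratase, Eci1, the mitochondrial isomerase, and Acaa2 had differences of 0.03, -0.04 and -0.12, none of which passed.

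The electron transfer flavoprotein is a dimer of the products of Etfa and Etfb, and its electrons go to ubiquinone through Etfdh. Etfdh had 37.6 FPKM in refed KR and 27.2 in fasted KR, beside 40.7 in refed WT and 27.0 in fasted WT, and rose by 0.51 ± 0.07 (adjusted p = 0.000279). Etfb had 120, 93.1, 134 and 99.4 FPKM and rose by 0.40 ± 0.06 (adjusted p = 0.000457). Etfa, the partner of Etfb in the dimer, had 61.8, 60.8, 60.4 and 60.3 FPKM, a difference of 0.01 ± 0.06 (adjusted p = 0.87), and did not pass.

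Promoter windows of the members were searched on both strands for 4 motifs of factors known to act on this pathway. Windows were found in RefSeq for 38 of the 43 genes, 41 windows in all. Members are counted below by gene and the background by window, so these are not the same measure. The FoxO motif GTAAACA was in 0 of the 38, beside 3.65% of all 32851 windows, and a relaxed form of the DR1 repeat read by PPAR receptors in 0, beside 0.381%. The oestrogen-related receptor motif TCAAGGTCA was in 1, Acsl6, beside 0.423%. The NRF1 motif, read by nuclear respiratory factor Nrf1, was in 4, Acad10, Etfb, Etfdh and Ppara, beside 4.60% of all windows. The windows of Etfb (chr7:43443822-43444121, plus strand) and Etfdh (chr3:79628718-79629017, minus strand) are shown with that motif in capitals as examples from 1 electron transfer chain. Of the other genes with the motif, Acad10 fell with refeeding and Ppara was not tested. Among members with a window, the motif was in 2 of 13 that rose, 1 of 10 that fell and 0 of 13 that did not pass. A match is a match of letters only, and a window without one says nothing of the factor.
Etfb: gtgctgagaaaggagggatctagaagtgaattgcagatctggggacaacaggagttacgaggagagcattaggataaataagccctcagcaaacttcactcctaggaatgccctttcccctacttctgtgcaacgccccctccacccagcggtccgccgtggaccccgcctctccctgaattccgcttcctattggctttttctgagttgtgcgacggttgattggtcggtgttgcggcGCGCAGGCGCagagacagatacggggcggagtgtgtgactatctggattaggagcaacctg
Etfdh: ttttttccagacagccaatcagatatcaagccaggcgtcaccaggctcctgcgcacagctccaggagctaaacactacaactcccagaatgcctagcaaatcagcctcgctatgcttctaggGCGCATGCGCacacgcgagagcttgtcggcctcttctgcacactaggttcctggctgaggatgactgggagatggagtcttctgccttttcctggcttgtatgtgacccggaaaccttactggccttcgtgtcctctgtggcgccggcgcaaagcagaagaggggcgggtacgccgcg

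Of the 5 peroxisomal enzymes, 3 rose, 1 fell and 1 did not pass. Ehhadh, the bifunctional enzyme that follows the oxidase step, lies on chromosome 16 at 21761358 to 21787907. It had 15.4 FPKM in refed KR and 11.2 in fasted KR, beside 19.3 in refed WT and 10.3 in fasted WT, and rose by 0.64 ± 0.10 (adjusted p = 0.000804). Acox3, an oxidase for branched chains, had 8.69, 6.74, 9.94 and 6.65 FPKM and rose by 0.42 ± 0.09. Hsd17b4, the D-bifunctional enzyme, had 26.2, 24.4, 27.9 and 22.1 FPKM and rose by 0.21 ± 0.07 (adjusted p = 0.0373). The thiolase Acaa1a had 42.9 FPKM in refed KR and 55.3 in fasted KR, beside 58.0 in refed WT and 61.6 in fasted WT, and fell by 0.22 ± 0.07 (adjusted p = 0.0317). Its near copy Acaa1b had 8.34, 10.1, 10.6 and 8.81 FPKM, a difference of 0.00 ± 0.11. The longest protein-coding transcripts of the pair (GENCODE M21) are identical at 96.0% of 1450 aligned bases, so their division of reads is uncertain.

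The genes that prepare and release acyl-CoA fell or did not pass. Of 7, also grouped after the values were seen, none rose and 4 fell, beside 27.7% and 29.2% of all genes. Acsl4, a synthetase that prefers arachidonic acid, lies on chromosome X at 138752536 to 138825078, and its fall was within 1 standard error of that of Cpt1a. It had 12.5 FPKM in refed KR and 20.9 in fasted KR, beside 14.9 in refed WT and 26.0 in fasted WT, and fell by 0.73 ± 0.07 (adjusted p = 6.24e-05). Acsl3, a synthetase of the endoplasmic reticulum and lipid droplets, had 4.03, 6.08, 3.37 and 6.37 FPKM and fell by 0.62 ± 0.10 (adjusted p = 0.00102). It overlaps the row of Utp14b, at 1.45 to 1.98 FPKM, and whether reads were assigned by strand is not given in the sources used here. The most abundant synthetase, Acsl5, had 37.8, 38.3, 43.2 and 40.2 FPKM and a difference of 0.04 ± 0.07. Acsl1, the main form in liver and fat, at 10.98 to 12.3 FPKM, had -0.03 ± 0.07, and Acsl6, at 4.25 to 5.46 FPKM, had 0.23 ± 0.10 (adjusted p = 0.069).

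The thioesterases Acot1, which is cytosolic, and Acot2, which is mitochondrial, split acyl-CoA into free acid and CoA. Acot2 had 4.42 FPKM in refed KR and 6.09 in fasted KR, beside 4.73 in refed WT and 6.35 in fasted WT, and fell by 0.37 ± 0.09 (adjusted p = 0.00728). Acot1 had 1.93, 2.54, 1.60 and 2.70 FPKM, from 28 to 95 implied fragments, and fell by 0.39 ± 0.13 (adjusted p = 0.0284). The transcripts of this pair are identical at 94.3% of 1330 aligned bases, with the longest identical run at 273 bases, so both values are uncertain.

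Among the regulators, Ppard, a nuclear receptor for fatty acids, fell. It lies on chromosome 17 at 28369699 to 28438414 and had 9.31 FPKM in refed KR and 14.8 in fasted KR, beside 8.88 in refed WT and 14.5 in fasted WT. The fall was 0.63 ± 0.07 (adjusted p = 0.000167). Mlycd, which breaks down malonyl-CoA and so releases the entry step, had 25.9, 29.3, 25.5 and 29.6 FPKM and fell by 0.19 ± 0.06 (adjusted p = 0.0321). Ucp2, a mitochondrial carrier known to lower insulin secretion in beta cells, had 69.0 FPKM in refed KR and 56.2 in fasted KR, beside 62.5 in refed WT and 43.3 in fasted WT, and rose by 0.41 ± 0.07 (adjusted p = 0.00139). Pdk4, the kinase that closes pyruvate dehydrogenase and is a classical fasting gene of muscle and liver, had 9.96 FPKM in refed KR and 10.9 in fasted KR, beside 10.8 in refed WT and 11.2 in fasted WT. Its difference was -0.08 ± 0.08 (adjusted p = 0.38).

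**Figure D2:**
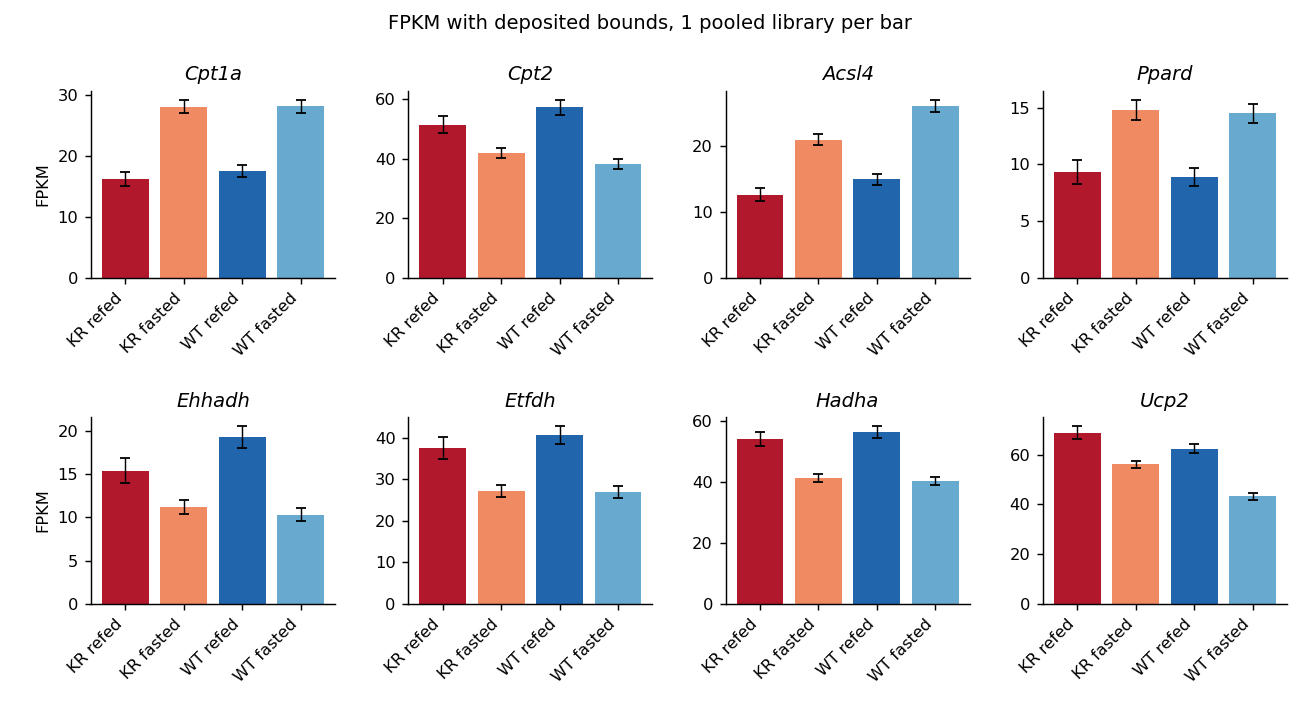
FPKM of 8 members, with 1 bar per pooled library and the deposited lower and upper bounds as error bars, which cover counting error only. Cpt1a, Acsl4 and Ppard stood lower in both refed libraries than in both fasted ones, and Cpt2, Ehhadh, Etfdh, Hadha and Ucp2 higher.

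Over the 4 libraries, the members nearest to Cpt1a in mean-centred log2 values were Ppard, at a distance of 0.14, Acsl4, at 0.23, and Acsl3, at 0.23. The nearest to Pdk4 were Slc25a20, at 0.08, Acsl1, at 0.09, and Acads, at 0.10, all members with little difference between libraries. Distances were taken over 40 candidates and describe 4 points per gene.

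Within single genotypes, few members were at least 1.5-fold apart in FPKM + 1. In KR islets 0 members were 1.5-fold higher after refeeding, beside 4.67% of all genes, and 3 were 1.5-fold lower, Cpt1a, Acsl4 and Ppard, 7.32% beside 8.23%. In WT islets 2 were higher, Acad11 and Ehhadh, 4.88% beside 6.89%, and 4 were lower, Cpt1a, Acsl3, Acsl4 and Ppard, 9.76% beside 9.22%. These pairs of single libraries have no replicate check.

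**Figure D3:**
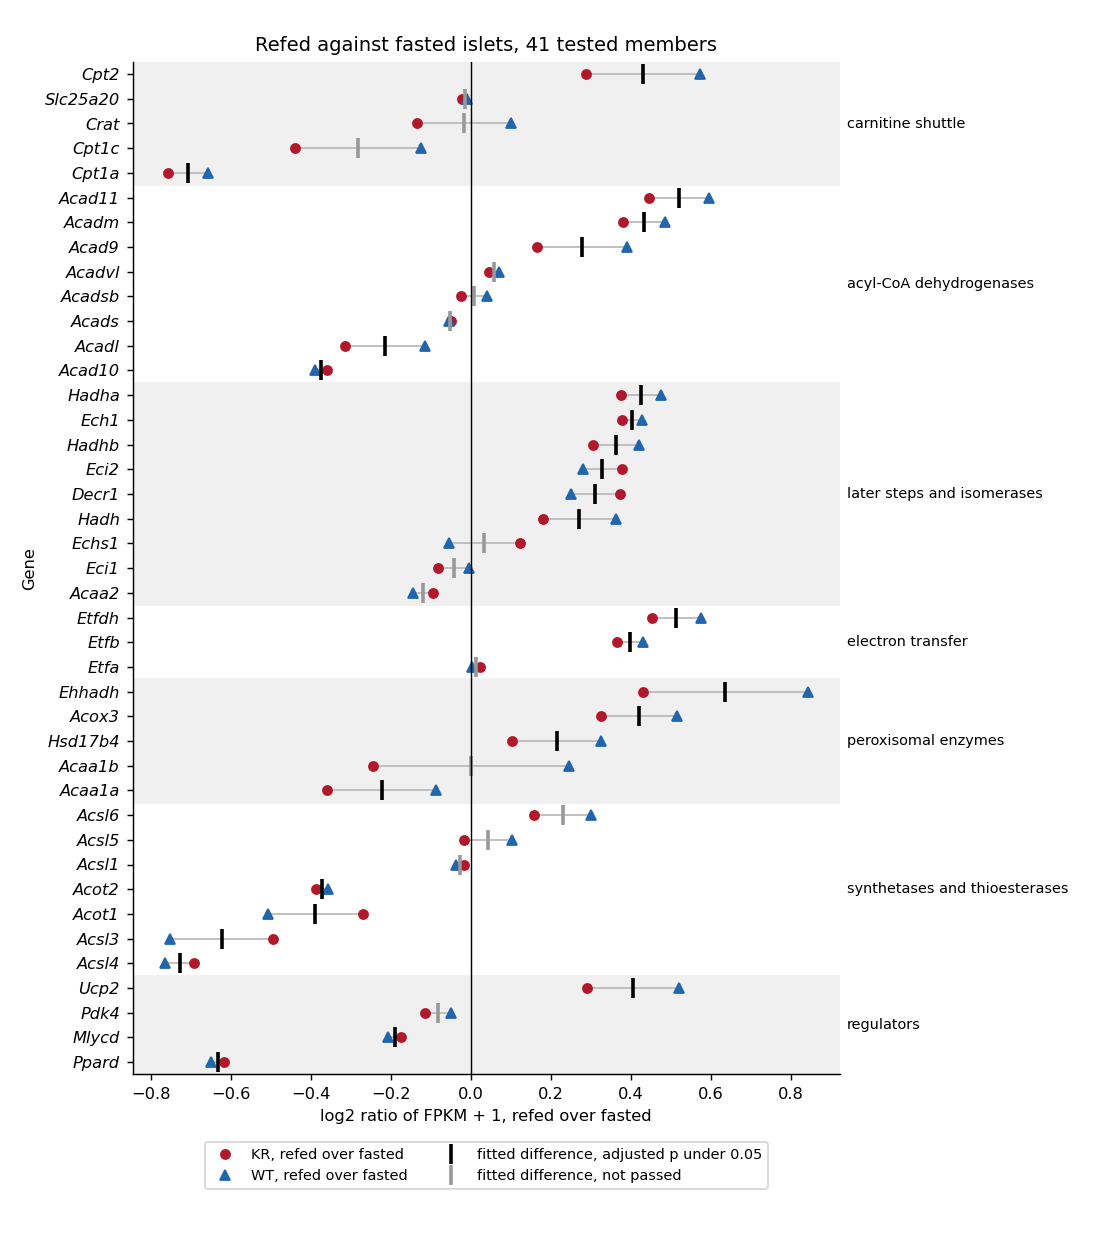
Log2 ratio of refed over fasted for the 41 tested members, in bands by role, with circles for KR, triangles for WT and a tick for the fitted difference, black where it passed. Of the later steps and isomerases 6 of 9 rose, and of the synthetases and thioesterases 4 of 7 fell. The bands were drawn after the values were seen, and over all genes 27.7% rose and 29.2% fell.

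KR islets were set against WT ones to ask whether the pathway's transcripts follow the state of FoxO1. None of the 41 members passed the limma test between genotypes, beside 1.26% of all genes tested. At an unadjusted p under 0.05 there were 6 members, 14.6%, beside 16.4% of all genes, namely Crat, Eci1, Eci2, Acaa1a, Acsl4 and Ucp2. Limma-voom on the implied fragments called 5, Eci2 and Ucp2 higher and Acaa1a, Acsl4 and Crat lower in KR, and limma after rescaling by the upper quartile called Eci2 and Ucp2 higher. Over the members, the fitted differences ran from -0.30 for Crat to 0.26 for Ucp2, with a median of -0.03, beside -0.04 for all genes. The 95% intervals of all 41 lay between -0.51 and 0.42. No member was 1.5-fold apart between genotypes in either state, beside 1.42% of all genes in the refed and 1.11% in the fasted pair.

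Cpt1a was nearly level between genotypes, with 16.2 FPKM in refed KR against 17.5 in refed WT, and 28.1 in fasted KR against 28.1 in fasted WT. The fitted difference of Cpt1a was -0.05, with a 95% interval of -0.21 to 0.10. For Pdk4 it was -0.07, with an interval of -0.24 to 0.10, and for Hadha -0.01, with an interval of -0.15 to 0.13. Foxo1 itself, which carries the change and is no member, had 13.8 FPKM in refed KR and 14.1 in fasted KR, beside 18.8 in refed WT and 17.45 in fasted WT, a fitted difference of -0.35 ± 0.07 (adjusted p = 0.0667). A gene-level value cannot show exchanged codons, so it does not check the genotype labels.

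The deposited bounds, taken as 2 standard errors either side, were compared in each pair, and a member was counted where they did not overlap. This rule is stricter than a difference beyond counting error. Overlapping bounds therefore do not place a difference within counting error. In the refed pair 2 members lay above WT in KR, Eci2 and Ucp2, 4.88% beside 3.51% of all genes, and 8 lay below, 19.5% beside 11.8%. Those 8 were Cpt2, Crat, Acadl, Acad9, Acaa1a, Ehhadh, Acsl4 and Acsl5. In the fasted pair 4 members lay above, Cpt2, Hadh, Eci2 and Ucp2, 9.76% beside 7.47%, and 4 below, Crat, Echs1, Acaa1a and Acsl4, 9.76% beside 15.5%. Eci2 and Ucp2 were thus above and Crat, Acaa1a and Acsl4 below in both states. Eci2 had 120 FPKM in refed KR against 98.6 in refed WT, and 92.4 in fasted KR against 81.1 in fasted WT, a fitted difference of 0.24 ± 0.06 (adjusted p = 0.104). Ucp2 had 69.0 FPKM in refed KR against 62.5 in refed WT, and 56.2 in fasted KR against 43.3 in fasted WT, a fitted difference of 0.26 ± 0.07 (adjusted p = 0.141). Crat had 6.19 FPKM in refed KR against 8.61 in refed WT, and 6.90 in fasted KR against 7.97 in fasted WT, a fitted difference of -0.30 ± 0.09 (adjusted p = 0.167). The fitted differences of Acaa1a and Acsl4 were -0.29 and -0.27 (adjusted p = 0.117 and 0.118). Eci1, at 21.8 FPKM in refed KR against 27.1 in refed WT, and 23.1 in fasted KR against 27.2 in fasted WT, had -0.26 ± 0.07 (adjusted p = 0.107), with overlapping bounds in both pairs.

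**Figure D4:**
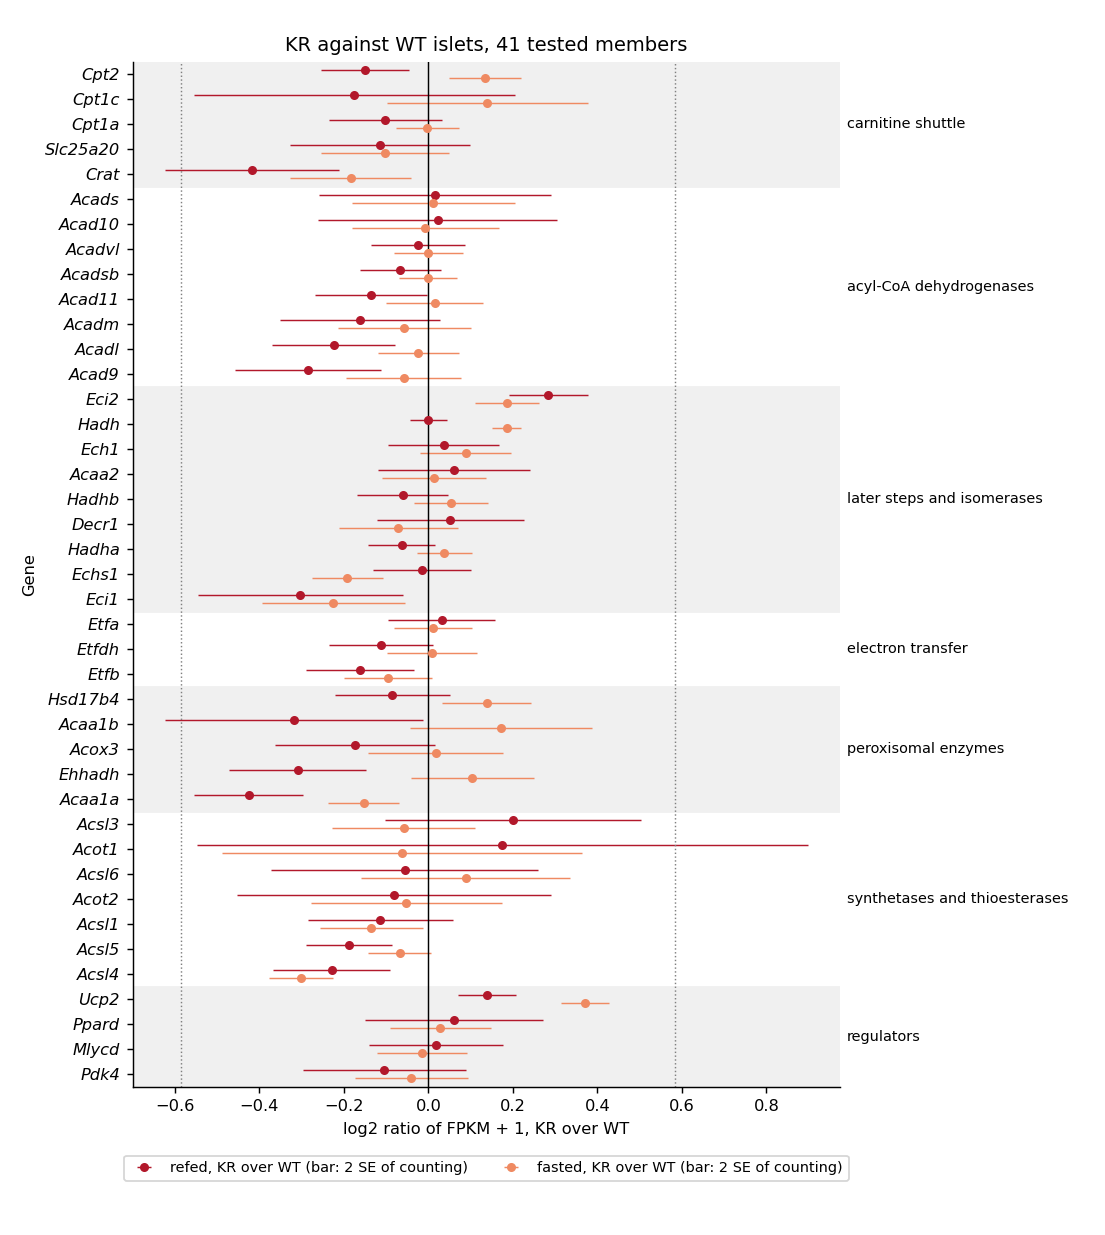
Log2 ratio of KR over WT for the 41 tested members in the refed and in the fasted pair, with bars of 2 counting standard errors and dotted lines at 1.5-fold. All points lie between the dotted lines, with Ucp2 and Eci2 to the right and Crat, Acaa1a and Acsl4 to the left in both states.

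The refeeding response was set side by side in the genotypes, although no degree of freedom is left to test their difference, the same libraries chose the genes that rose, and the refed KR library was the shallowest. Of the 16 members that rose, 14 had a smaller ratio of refed over fasted in KR than in WT, 87.5% beside 69.0% of the 3308 genes that rose, with Eci2 and Decr1 as the exceptions. After rescaling by the median of ratios or the upper quartile, a check added after the values were seen, the members' count was again 14 and the share of all genes 62.6% and 59.3%. The widest gaps, picked after the values were seen, were those of Ehhadh, Cpt2, Ucp2 and Acad9. Ehhadh had a log2 ratio of 0.43 in KR and 0.84 in WT, Cpt2 0.29 and 0.57, Ucp2 0.29 and 0.52, and Acad9 0.17 and 0.39. The other members with a smaller rise in KR had narrower gaps, such as Ech1, at 0.38 and 0.43, and Acadm, at 0.38 and 0.48. Of the 10 members that fell, 6 had a smaller fall in KR, 60.0% beside 57.5% of the 3488 genes that fell. After the same rescalings the members' count was again 6 and the share of all genes 63.4% and 65.4%, so the members' share lay above that of all genes as deposited and below it when rescaled. Cpt1a had a log2 ratio of -0.76 in KR and -0.66 in WT.

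Other lists of lipid metabolism genes are given by their counts, to be read beside the 27.7% of all genes that rose and 29.2% that fell with refeeding and the 1.26% that passed between genotypes. Of 17 tested peroxisome genes beyond the members, 6 rose and 5 fell with refeeding and none passed between genotypes. Abcd3, a peroxisomal fatty acid transporter chosen after its value was seen, rose by 0.75 ± 0.07 (adjusted p = 5.55e-05), and catalase (Cat), chosen likewise, fell by 0.92 ± 0.09. Of 8 tested lipid droplet and lipolysis genes, 6 fell with refeeding and none rose, among them Plin2, the droplet coat protein, by 0.54 ± 0.07, with 22.5, 31.5, 26.9 and 41.7 FPKM in refed KR, fasted KR, refed WT and fasted WT. None of these 8 passed between genotypes. Of 10 uptake and binding genes, 3 rose and 1 fell with refeeding. In KR, 2 of the 10 fell, Fabp4, also in the adipocyte list, by 1.24 ± 0.12 and the lipase gene Lpl by 0.37 ± 0.05, while the fatty acid transporter Cd36 had a difference of -0.36 ± 0.10 (adjusted p = 0.124).

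Of 8 tested genes around malonyl-CoA, 3 rose and 3 fell with refeeding. Acaca, the carboxylase that makes it, had 3.38 FPKM in refed KR and 4.33 in fasted KR, beside 3.67 in refed WT and 4.52 in fasted WT, and fell by 0.26 ± 0.10 (adjusted p = 0.0484). The mitochondrial form Acacb lay at 0.0553 to 0.106 FPKM. Of 4 tested ketone body genes, 2 rose and none fell. Of 16 further regulators, 3 rose and 6 fell with refeeding. Pparg and Nrf1, chosen after their values were seen, fell by 1.27 ± 0.07 and 1.11 ± 0.09, while Esrra and Sirt3 had differences of -0.13 and 0.02 and did not pass. Of 12 tested odd-chain and other acyl-CoA genes, 6 rose and 1 fell. None of the genes in these 4 lists passed between genotypes. Angptl4, a lipase inhibitor and PPAR target, lay under 1 FPKM, at 0.108, 0.581, 0.132 and 0.903 in refed KR, fasted KR, refed WT and fasted WT. Txnip, a glucose-induced gene used here as a sign of the fed state, had 90.5 FPKM in refed KR and 23.95 in fasted KR, beside 63.4 in refed WT and 18.9 in fasted WT. It rose by 1.78 ± 0.07 with refeeding (adjusted p = 1.55e-06) and by 0.42 ± 0.07 in KR (adjusted p = 0.0289).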

How the data were processed

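RNA from pooled islets was enriched for poly-A and prepared with a TruSeq kit, per the labels' protocols. The submitters' processing notes name bcl2fastq 1.8.4, TopHat2 2.0.4 and the mouse build mm9. The authors deposited FPKM values with bounds and a status, per the file headers. The program that made them is not given in the sources used here. Values were used where the status was OK in all 4 libraries, which left out 189 symbols, and rows of a symbol were summed. Implied fragments are the squared ratio of FPKM to its standard error, taking the deposited bounds as 2 standard errors either side. Deposited starts count from 0, since end minus start equalled the RefSeq hairpin length in 437 of 445 microRNA rows, and are written counted from 1.

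Genes whose FPKM averaged 1 or more were fitted as log2(FPKM + 1), which understates changes of low genes, in limma 3.58.1 (R 4.3.3) with a mean-variance trend. The model holds genotype and feeding state, with 7.58 prior degrees of freedom beside the 1 residual. Benjamini-Hochberg adjusted p under 0.05 counted as passing. Members named were those that passed, were 1.5-fold apart in any pair, or belonged to a panel of central genes, of which some are not reported here. The members, lists and rules were chosen with earlier results of these data known. Roles were grouped by textbook function after the values were seen. Alternatives changed the trend, prior, filter, pseudocount, scaling, summing of rows and model.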

Additional observations from a re-analysis of the deposited data

Results flagged for a closer look

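Cpt2 was apart between genotypes in opposite directions in the 2 feeding states, by more than the deposited bounds allow in each. Its log2 ratio of KR over WT was -0.15 in the refed pair, with 51.5 FPKM (bounds 48.5 to 54.5) in KR against 57.3 (54.8 to 59.7) in WT. In the fasted pair the ratio was 0.13, with 42.0 FPKM (40.3 to 43.8) in KR against 38.2 (36.6 to 39.9) in WT. Cpt2 was the single member of 43 with this pattern. The share of all genes with it was not counted, so it is not known whether 1 of 43 is unusual. In the refed pair the bounds missed each other narrowly, at 54.5 against 54.8, and they were not recomputed after rescaling. The difference between the pairs was not tested, since each group has 1 library.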

How the results depend on the processing

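The feeding direction of every member that passed was kept in each alternative that tested it, 10 in all, or 9 for Acot1 and Acsl3, which were not tested at a mean FPKM of at least 5. Members that fell with refeeding numbered 4 with no filter on low values, and Acaa1a, Acad10, Acadl, Acot1, Acot2 and Mlycd lost their call there. Elsewhere 7 to 11 fell and in all 13 to 16 rose. Between genotypes, 2 members were higher after rescaling by the upper quartile, Eci2 and Ucp2, and 2 were higher and 3 lower with limma-voom. In the other 8 none passed. Over all genes, higher and lower calls between genotypes numbered 72 and 79. They were 3 and 2 without the trend, 0 and 0 with no filter (1892 at an unadjusted p under 0.05), 98 and 130 with a robust prior, 96 and 156 at a mean FPKM of at least 5, 50 and 45 at a pseudocount of 5, 76 and 51 after rescaling by the median of ratios, 143 and 66 by the upper quartile, and 331 and 418 with limma-voom. Higher calls made up 47.7% as deposited, 59.8% by the median of ratios and 68.4% by the upper quartile. A pseudocount of 5 left 1 member in KR and 2 in WT at least 1.5-fold apart between feeding states. The genotype difference of Acadvl was 0.049 by the upper quartile (adjusted p = 0.758), against -0.012 as deposited. Changes of sign within 1 standard error of differences that never passed are not counted. The causes were not tested. Leaving out a library leaves no residual degree of freedom, and the fit then returns the ratio of a single pair, given in the report. No paired analysis was possible because each group has 1 library. Precision is lowest for refed KR, the shallowest library.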
